A study of Mus musculus with 20 samples.

Results

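Transcripts of splicing factor genes were followed in keratinocytes of mice bred to lose the glucocorticoid enzyme gene Cyp11b1, and of controls. Tamoxifen was given on the skin or by injection. The genes were taken by symbol: every row of the count table whose name begins with Srsf, Hnrnp, Luc7l, Sf3a, Sf3b, Snrp or Snrnp, together with Clk1 to Clk4, Tra2a and Tra2b. The rule found 68 of 25719 rows, with no pseudogene name to drop, and all 68 were protein coding in GENCODE vM21. They were 11 SR protein genes, 2 Tra2 genes, 4 Clk kinase genes, 3 LUC7-like genes, 20 hnRNP genes, 9 genes of the SF3A and SF3B complexes and 19 snRNP protein genes. The low-count filter kept 67 of the 68. Srsf12 failed it, with a highest level of 0.511 CPM (reads of the gene scaled to the size of the library) in any library.

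The 20 libraries came from keratinocytes of ear and back skin, enriched by cell sorting, with 5 mice in each of 4 groups. Knockout mice (cKO) were K14-CreERTam x Cyp11b1 L2/L2, in which a tamoxifen-activated Cre under the keratin 14 promoter acts in basal keratinocytes. Controls were Cre-negative Cyp11b1 L2/L2 littermates, so both genotypes carried the floxed alleles and all 4 groups received tamoxifen on 5 consecutive days, with cells taken on day 6. Topical mice had it applied to dry-shaved back and ear skin in ethanol, and systemic mice had it injected into the peritoneum in oil and ethanol, so vehicle and shaving moved with the route. No group without tamoxifen was among the samples used here, nor one with Cre but without the floxed alleles. Cre itself and loss of Cyp11b1 thus cannot be told apart between genotypes. The age of the mice is not given in the sources used here.

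Pre-mRNA splicing is carried out by the spliceosome, whose small nuclear ribonucleoproteins (snRNPs) recognise splice sites and whose SF3A and SF3B complexes belong to the U2 snRNP at the branch point. SR proteins mostly favour exon inclusion and are phosphorylated by Clk kinases, which releases them from nuclear speckles, whereas hnRNP proteins coat nascent RNA and often act against SR proteins at the same exons. Many of these genes regulate their own transcripts through poison exons or detained introns that keep RNA in the nucleus, Clk1, Clk4 and the SR genes among them. Counts per gene do not separate intron from exon reads, so intron retention was not measured here.

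The promoters of 4 genes on which the results turn are shown, since these genes moved in opposite directions between the same groups of mice. Each runs over the 250 bases before the annotated RefSeq start in GRCm38.p6, 5′ to 3′ on the strand of the gene. Srsf2 lies at chr11:116853095-116853344 on the minus strand, Srsf7 at chr17:80207306-80207555 on the minus strand, Clk4 at chr11:51262864-51263113 on the plus strand and Hnrnpa3 at chr2:75659009-75659258 on the plus strand. Capitals mark letters that match a promoter motif on either strand. The motifs marked are the GC box, written GGGCGG, the CCAAT box with those letters, the TATA box, written TATAAA, and the cAMP response element, written TGACGTCA.
Srsf2: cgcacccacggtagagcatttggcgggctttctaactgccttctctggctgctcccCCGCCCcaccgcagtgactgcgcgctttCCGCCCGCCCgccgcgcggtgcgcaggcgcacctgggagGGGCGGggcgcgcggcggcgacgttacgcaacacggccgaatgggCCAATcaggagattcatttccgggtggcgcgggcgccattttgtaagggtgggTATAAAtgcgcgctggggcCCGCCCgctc
Srsf7: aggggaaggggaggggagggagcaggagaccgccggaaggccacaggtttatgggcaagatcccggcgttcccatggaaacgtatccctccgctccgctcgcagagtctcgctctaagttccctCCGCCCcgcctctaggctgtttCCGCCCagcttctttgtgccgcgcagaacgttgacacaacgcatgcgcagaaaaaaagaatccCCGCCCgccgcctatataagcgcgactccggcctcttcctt
Clk4: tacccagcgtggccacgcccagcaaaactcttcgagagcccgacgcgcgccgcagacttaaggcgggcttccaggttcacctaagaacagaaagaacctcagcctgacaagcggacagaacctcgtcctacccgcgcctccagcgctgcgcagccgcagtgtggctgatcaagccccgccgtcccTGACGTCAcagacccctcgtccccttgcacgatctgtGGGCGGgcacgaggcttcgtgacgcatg
Hnrnpa3: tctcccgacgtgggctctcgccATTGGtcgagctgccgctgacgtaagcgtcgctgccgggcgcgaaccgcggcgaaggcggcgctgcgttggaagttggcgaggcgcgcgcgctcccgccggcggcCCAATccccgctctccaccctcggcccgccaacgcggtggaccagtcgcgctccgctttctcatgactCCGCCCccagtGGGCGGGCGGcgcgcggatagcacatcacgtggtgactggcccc
The first 3 genes were higher in injected than in topically treated controls and the last was lower, as the values that follow show. Srsf2 held 5 GC boxes, 1 CCAAT box and 1 TATA box, Srsf7 held 3 GC boxes, Clk4 held 1 GC box and 1 cAMP response element, and Hnrnpa3 held 3 GC boxes and 2 CCAAT boxes. GC boxes can overlap each other, so adjoining matches share bases.

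Of the 68 genes, 59 had a RefSeq promoter, and 43 of these 59 (72.9%) held a GC box, against 32.9% of 27025 mouse promoters of the same length. A CCAAT box was found in 25 (42.4%) against 34.5%, and a TATA box in 6 (10.2%) against 13% of all promoters. The cAMP response element was found in 4 (6.78%) against 1.62%, and the ETS core CCGGAAGT in 7 (11.9%) against 2.93%. The full palindrome of the glucocorticoid response element was in none of the 59 and in 1 of all promoters. Median GC content was 59.6% over these genes and 52% over all promoters. GC boxes were found in 15 of 16 promoters of genes that were higher after injection in controls and in 5 of 7 of those that were lower. CCAAT boxes leaned the other way, in 4 of the 16 (25%) and 4 of the 7 (57.1%). These are letter matches, which are no measure of binding.

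Library totals ran from 11.6 to 50.1 M counts. Keratinocyte markers (8 genes, Krt14 and Krt5 leading) summed to between 84927 and 117943 CPM, and the marker lists of the other cell types to at most 110 CPM (fibroblast). Cyp11b1 itself, the targeted gene, had at most 6 reads in any library, so its loss cannot be read from these counts. Satellite-like transcripts, a group of 12 predicted genes, summed to between 79.4 and 37287 CPM in 6 libraries, all 5 systemic controls and systemic cKO 2, and to between 0.839 and 42.5 CPM in the other 14. Among controls this split is the same as the split by route, so satellite-like level and route cannot be told apart there. Each number after a group name is the number of the mouse in its label. P-values measure the spread between mice, and in bulk samples fewer cells of a type and less RNA per cell cannot be told apart.

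Splicing factor genes gave 3436 to 5994 CPM in sum per library. Systemic controls ran from 3947 to 5994 CPM, systemic cKO from 3920 to 4621 CPM, topical controls from 3817 to 5038 CPM and topical cKO from 3436 to 4945 CPM, so all 4 ranges overlapped. The highest sum was that of systemic control 6. After TMM scaling, a correction of library size used for single genes, it was 3954 CPM, the lowest of its group. Per kilobase of exon, the highest mean level was that of Hnrnpk, an hnRNP that binds C-rich RNA, at 131 CPM per kb. Snrpb, a core Sm protein of the snRNPs, followed at 91.7 CPM per kb and Snrpe, another Sm protein, at 67.8 CPM per kb. Among SR genes Srsf2 led with 57.2 CPM per kb, ahead of Srsf7 with 24.3 and Srsf3 with 20.4 CPM per kb. The Clk kinases were spread widely, with 19.8 CPM per kb for Clk1, 5.22 for Clk3, 4.60 for Clk4 and 0.501 for Clk2. LUC7-like genes, whose proteins belong to the U1 snRNP side of 5′ splice site choice, lay low, at 3.02 CPM per kb for Luc7l, 1.96 for Luc7l3 and 0.814 for Luc7l2. Snrpn, an imprinted Sm protein gene best known from neurons, was at 0.506 CPM per kb and shares exons with Snurf on the same strand.

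Of the 5 comparisons, the one between routes of treatment in mice without Cre called the most splicing factor genes. In systemic against topical controls, 26 of 67 splicing factor genes (38.8%) were called at an adjusted p under 0.05, against 18.3% of all 12424 genes tested. Of these, 18 were higher and 8 lower, where 10.2% of all genes were called higher and 8.16% lower. The groups did not overlap for 14 genes in the higher and 7 in the lower direction, beside 7.54% and 6.26% of all genes. All 4 Clk kinases and all 3 LUC7-like genes were higher, as were 5 of 10 SR genes, while hnRNP genes split into 3 higher and 4 lower. SF3A and SF3B genes split into 1 higher and 2 lower, snRNP genes into 2 higher and 1 lower, and neither Tra2 gene was called. The median log2 fold change was 1.06 over the LUC7-like genes, 0.89 over the Clk kinases and 0.32 over the SR genes. It was 0.03 for Tra2, −0.02 for hnRNP, −0.13 for snRNP and −0.23 for SF3A and SF3B genes, beside −0.01 over all 67 members and 0.00081 over all genes tested.

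**Figure D1:**
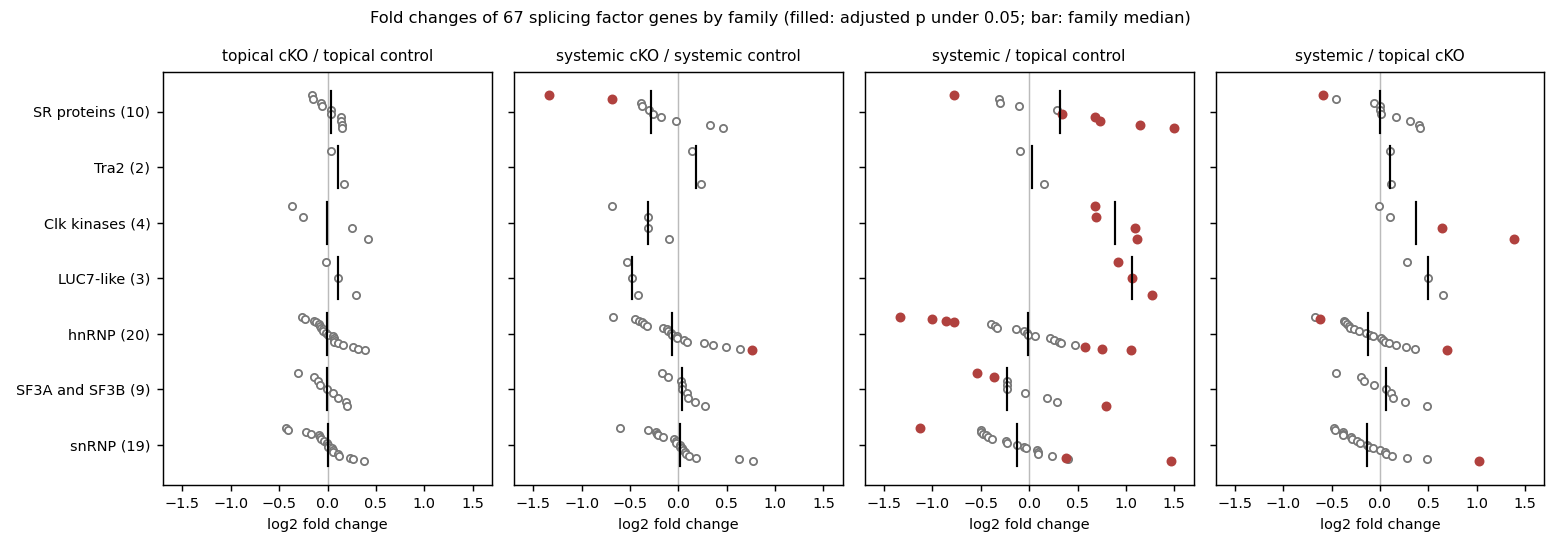
Log2 fold change (horizontal axis) of each of the 67 tested splicing factor genes by family, in 4 comparisons, with filled points at an adjusted p under 0.05 and a bar at the family median. In systemic against topical controls all Clk and LUC7-like genes lie to the right and are filled, whereas hnRNP genes reach from −1.33 to 1.05.

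Clk1 encodes a dual-specificity kinase that phosphorylates SR proteins. Its level was 84.5, 105, 125, 102 and 121 CPM in topical controls 1, 3, 5, 6 and 7, and 209, 260, 227, 242 and 230 CPM in systemic controls 1, 3, 4, 5 and 6. Every systemic control thus lay above every topical control, and the log2 fold change was 1.12 (SE 0.17, adjusted p = 0.000262). Clk4, its close relative, stood at 16.6, 19.5, 27.6, 24.4 and 23.9 CPM in topical controls and at 28.1, 36.5, 38.4, 37.9 and 40.0 CPM in systemic controls, again without overlap (0.69, SE 0.16, adjusted p = 0.00494). Clk3 rose from 34.7 ± 2.92 to 55.6 ± 6.63 CPM (mean ± SD, n = 5 each; log2 fold change 0.68, SE 0.16, adjusted p = 0.00506), also without overlap. Clk2, the least abundant, went from 1.86 ± 0.735 to 3.86 ± 1.27 CPM with overlapping groups (log2 fold change 1.09, adjusted p = 0.017). Clk3 shares exons with Edc3 on the opposite strand, which was itself higher (0.38, adjusted p = 0.0129), and the strand setting of the counting is not given in the sources used here, so the reads of both genes cannot be told apart where they overlap.

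Among the substrates of these kinases, Srsf7, which promotes exon inclusion and RNA export, had the smallest adjusted p. It was measured at 56.8, 76.5, 61.1, 52.3 and 60.8 CPM in topical controls and at 120, 137, 135, 158 and 129 CPM in systemic controls. The groups did not overlap, and the log2 fold change was 1.14 (SE 0.16, adjusted p = 0.000134). Srsf2, a nuclear speckle protein also known as SC35, ran at 114, 131, 103, 97.6 and 116 CPM in topical controls and at 200, 460, 249, 309 and 359 CPM in systemic controls (1.49 on the log2 scale, SE 0.33, adjusted p = 0.00402). Here too the groups did not overlap, although the systemic controls spread from 200 to 460 CPM. The Srsf2 gene shares exons with Mettl23 and Mfsd11 on the opposite strand, of which Mettl23 was higher (1.29, adjusted p = 0.00115) and Mfsd11 lower (−0.68, adjusted p = 0.0168), so these reads cannot be told apart where the genes overlap. Srsf5, Srsf11 and Srsf4 rose by 0.73, 0.68 and 0.34 on the log2 scale (adjusted p = 0.0201, 0.00925 and 0.035).

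Not all SR genes took part. Srsf9 was the 1 SR gene called lower, at 5.80, 7.36, 6.96, 7.43 and 6.25 CPM in topical controls and 4.66, 4.15, 2.96, 4.65 and 3.35 CPM in systemic controls (−0.78, SE 0.17, adjusted p = 0.00421). For Srsf3, Srsf1 and Srsf6 the log2 fold changes were −0.30 (SE 0.17), −0.32 (SE 0.19) and −0.10 (SE 0.16), and for Srsf10 the value was 0.29 (SE 0.14), none of them called. Tra2a and Tra2b, SR-like regulators that bind GAA-rich exons, gave 0.15 (SE 0.30) and −0.10 (SE 0.16). Tra2a varied from 16.7 to 47.2 CPM among systemic controls, and the SE exceeded its difference. What size of difference 5 mice a group could detect was not tested.

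LUC7-like genes were all called higher, with levels that spread widely among injected mice. Luc7l was at 15.7, 15.2, 21.7, 18.6 and 15 CPM in topical controls and at 22.0, 41.3, 30.9, 28.2 and 40.3 CPM in systemic controls, just without overlap (0.92, SE 0.23, adjusted p = 0.00919). Luc7l3 averaged 10.1 ± 2.23 against 21.0 ± 9.33 CPM (1.06, SE 0.29, adjusted p = 0.0145) and Luc7l2 6.19 ± 1.43 against 14.8 ± 7.85 CPM (1.27, SE 0.41, adjusted p = 0.0366), and in both the groups overlapped. Systemic control 3 was the highest of its group for all 3 genes. Systemic controls 3 and 6 had 16915 and 18750 genes detected, and the other systemic controls 15020 to 15239. Mitochondrially encoded genes gave 5.94% and 6.42% of their counts, against 1.87% to 3.15% in the others. The part of these library traits in the result was not tested. Without systemic control 3 the adjusted p of Luc7l3 was 0.0617 and that of Luc7l2 0.13, and the count of called splicing factor genes in this comparison fell to 17.

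The hnRNP family parted by member. Hnrnpa3, an RNA-binding protein of the A/B group, was at 27.4, 38.6, 30.4, 25.3 and 29.1 CPM in topical controls and at 12.6, 15.1, 9.02, 11.9 and 11.4 CPM in systemic controls. No systemic control reached the lowest topical control, and the log2 fold change was −1.33 (SE 0.18, adjusted p = 6.98e-05). The other members of the A/B group that were called fell as well: Hnrnpa1, a general repressor of exon inclusion, from 77.4 ± 12.3 to 42.8 ± 6.55 CPM (−0.86, SE 0.17, adjusted p = 0.00189), Hnrnpa0 from 10.5 ± 1.55 to 5.23 ± 0.899 CPM (−1.01, SE 0.21, adjusted p = 0.00303) and Hnrnpab from 51.3 ± 6.06 to 29.9 ± 5.98 CPM (−0.78, SE 0.17, adjusted p = 0.00411). In each of these 3 the systemic controls lay below all topical controls. Hnrnpa2b1, the most abundant member of that group per kilobase of exon with 41.6 CPM per kb, gave −0.40 (SE 0.21, adjusted p = 0.201). Hnrnpa1 and Hnrnpa3 have processed pseudogenes in the mouse genome, and how reads matching several places were counted is not given in the sources used here.

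Hnrnph3, Hnrnpl and Hnrnpdl went the other way. Hnrnph3, of the H and F group that binds G-rich RNA, was at 5.04, 4.68, 4.64, 5.64 and 5.80 CPM in topical controls and at 7.85, 15.1, 8.89, 8.72 and 12.7 CPM in systemic controls (1.05, SE 0.18, adjusted p = 0.000655). It shares exons with Rufy2 on the opposite strand, which was also higher (1.43, adjusted p = 0.00234). Hnrnpl, which binds CA repeats, averaged 16.8 ± 2.34 against 28.3 ± 3.69 CPM (0.75, SE 0.18, adjusted p = 0.00691), and Hnrnpdl 43.2 ± 4.76 against 64.4 ± 13.4 CPM (0.58, SE 0.17, adjusted p = 0.0245). For the abundant Hnrnpk the value was −0.02 (SE 0.25), for Hnrnpc, a binder of U-rich RNA, −0.14 (SE 0.15), for Hnrnph1 −0.05 (SE 0.22) and for Hnrnpll 0.33 (SE 0.33), with no call.

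In the core spliceosome, 3 of 9 SF3A and SF3B genes (33.3%) and 3 of 19 snRNP genes (15.8%) were called, beside 18.3% of all genes. Sf3b1, which contacts the branch point within U2 snRNP, was at 226, 261, 229, 209 and 263 CPM in topical controls and at 399, 378, 462, 526 and 300 CPM in systemic controls (0.80, SE 0.19, adjusted p = 0.00542), and the groups did not overlap. Its partners Sf3a3 and Sf3b5 were lower, by −0.37 (SE 0.10, adjusted p = 0.0176) and −0.54 (SE 0.18, adjusted p = 0.0415) on the log2 scale, and Sf3a1 gave −0.23 (SE 0.09, adjusted p = 0.0953). The called snRNP genes of the minor, U12-type spliceosome moved apart: Snrnp48 averaged 5.82 ± 1.35 against 16 ± 4.71 CPM (1.47, SE 0.35, adjusted p = 0.0057), and Snrnp35 1.55 ± 0.253 against 0.699 ± 0.403 CPM (−1.12, SE 0.32, adjusted p = 0.0191). Snrpa1, a U2 snRNP protein, rose by 0.38 (SE 0.12, adjusted p = 0.0367). The U1 proteins Snrnp70 and Snrpa gave 0.09 (SE 0.20) and −0.22 (SE 0.15), and the U5 helicase gene Snrnp200 0.24 (SE 0.15).

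**Figure D2:**
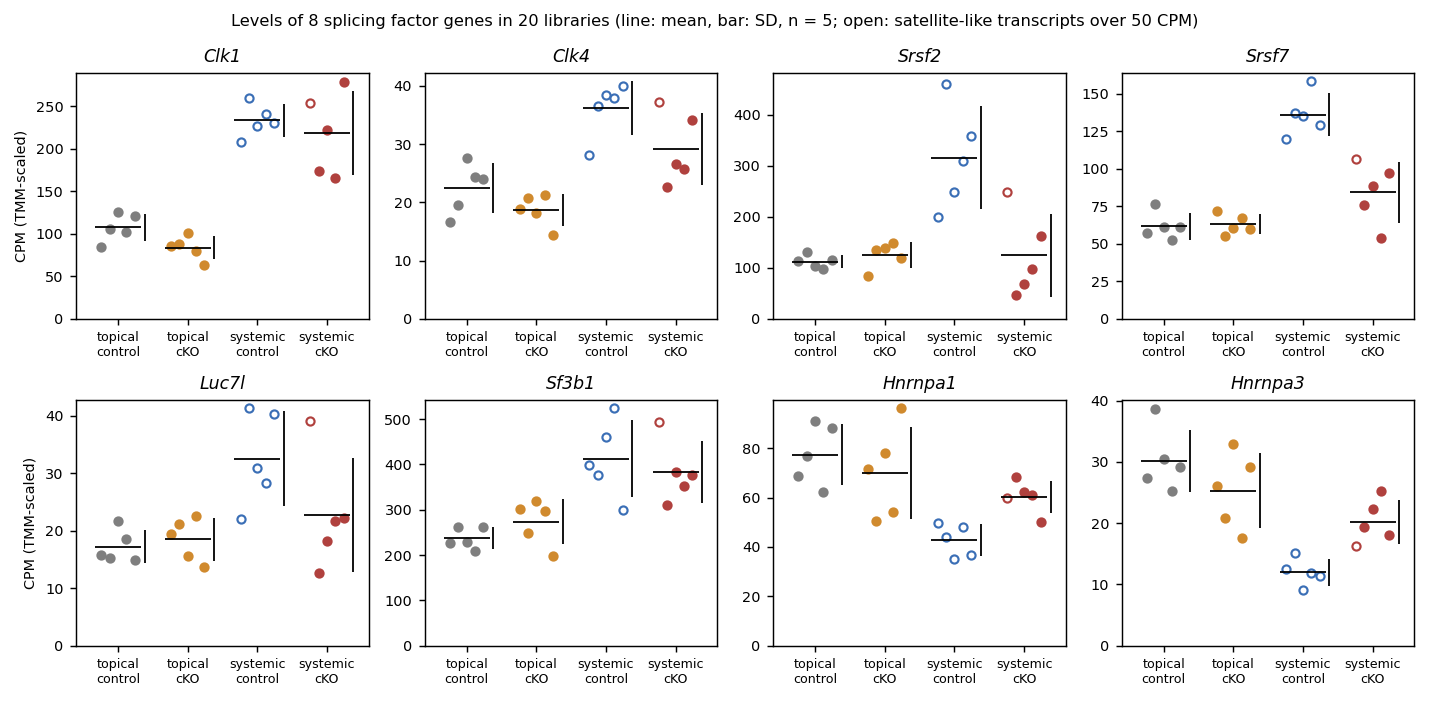
TMM-scaled CPM (vertical axes, starting at 0) of 8 splicing factor genes in the 20 mice by group, with the mean as a line, the SD as a bar (n = 5) and open points for libraries whose satellite-like transcripts exceed 50 CPM. Clk1, Srsf7 and Luc7l lie higher and Hnrnpa1 and Hnrnpa3 lower in systemic than in topical controls without overlap, and systemic cKO 2 is the open point among the systemic cKO.

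The calls of Clk2, Srsf4, Srsf5, Luc7l2, Luc7l3, Hnrnpdl, Sf3a3, Sf3b5 and Snrpa1 were each lost on leaving out at least 1 of the 10 mice. That of Snrpa1 was lost in 8 cases, those of Srsf4 and Sf3b5 in 7, Luc7l2 in 6, Hnrnpdl in 4, Clk2 and Srsf5 in 3, and Luc7l3 and Sf3a3 in 1, with a highest adjusted p of 0.0528 for Clk2, 0.0543 for Sf3a3, 0.0687 for Srsf5, 0.0838 for Hnrnpdl and 0.123 for Sf3b5 without systemic control 3. It was 0.0913 for Srsf4 without topical control 6 and 0.0951 for Snrpa1 without systemic control 6. Some of the differences, not all, changed in size when satellite-like transcripts entered the fit. With the split at 50 CPM as a covariate, 0 of the 67 genes were called between controls, where the covariate rests on systemic cKO 2 against the other 4 systemic cKO, and with the log2 satellite-like level 2 were called, Srsf7 (0.90, adjusted p = 0.0406) and Hnrnpa3 (−1.18, adjusted p = 0.0218). With the split and with the log2 level, none of the following called, the values were −0.77 and −0.79 for Srsf9, −0.84 and −0.75 for Hnrnpa1, 0.33 and 0.36 for Srsf4 and −0.36 and −0.32 for Sf3a3. They were 0.09 and 0.50 for Srsf2, 0.26 and 0.24 for Clk2 and 0.84 and 0.93 for Clk1. Without the 3 libraries highest in these transcripts (systemic cKO 2, systemic controls 3 and 6), 17 were called, 11 higher and 6 lower. Within the systemic cKO, where the libraries differ in this respect, cKO 2 was the highest of the 5 for 14 of the 18 genes higher in systemic controls and lay inside the range of systemic controls for 17 of the 18. Systemic cKO 7, with a satellite-like level of 2.08 CPM, was the highest for the other 4 and lay inside that range for 11, cKO 5 for 7, cKO 6 for 5 and cKO 4, the lowest of the 5 for 13 genes, for 1. Of the 8 genes lower in systemic controls, cKO 2 was the lowest of the 5 for 4. The share of all genes called in each of these refits is not given here. Whether the drop in calls is particular to splicing factor genes was not tested. The part of these transcripts in the route difference was not tested.

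The same routes were compared in the knockouts. In systemic against topical cKO, 6 of 67 splicing factor genes (8.96%) were called, against 9.22% of all genes tested, with 4 higher (5.19% of all genes) and 2 lower (4.02%). Clk1 stood at 86.1, 87.7, 101, 79.8 and 63.3 CPM in topical cKO 2, 3, 4, 5 and 7 and at 254, 174, 222, 166 and 278 CPM in systemic cKO 2, 4, 5, 6 and 7. The lowest injected mouse exceeded the highest topical one, and the difference was 1.39 on the log2 scale (SE 0.17, adjusted p = 5.22e-05). Clk4 was at 18.8, 20.8, 18.2, 21.3 and 14.4 CPM in topical cKO and at 37.3, 22.6, 26.6, 25.7 and 34.1 CPM in systemic cKO (0.64, SE 0.16, adjusted p = 0.0133). Hnrnph3 averaged 5.14 ± 1.05 against 8.31 ± 1.52 CPM (0.70, SE 0.19, adjusted p = 0.0196). These 3 genes were the members whose groups did not overlap here, where 4.07% of all genes did so in that direction, and 0 did so in the lower direction (3.32% of all genes). Clk1 and Clk4 kept the call, and the direction, on leaving out any of the 10 libraries and in the 12 other alternatives, with log2 fold changes of 1.29 to 1.47 and 0.54 to 0.72. Between these groups the summed epidermal immune markers did not overlap, at 16.7 to 33.7 CPM in systemic and 7.27 to 12.7 CPM in topical cKO, nor did the summed erythroid markers, at 3.45 to 7.25 against 0.889 to 2.04 CPM. Each sum rested mainly on 1 gene. Over all libraries Cd74 had a median of 11.4 CPM, with H2-Aa next at 1.66 CPM. Hba-a1 had a median of 1.98 CPM, with Hba-a2 next at 0.234 CPM. The part of these markers in the result was not tested. In controls both sums overlapped between routes, at 7.16 to 29.6 against 7.05 to 14.3 CPM and at 1.23 to 6.34 against 0.723 to 3.55 CPM.

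Snrnp25, a U11/U12 snRNP protein of the minor spliceosome, was called in the knockouts and not in the controls. Its level was 6.15, 8.24, 6.69, 4.88 and 6.97 CPM in topical cKO and 6.96, 15.6, 16, 16.4 and 11 CPM in systemic cKO (1.02, SE 0.20, adjusted p = 0.00257). Systemic cKO 2 was the 1 injected knockout inside the topical range. In controls the value was −0.03 (SE 0.20), and the interaction of genotype and route was 1.05 (SE 0.29, adjusted p = 0.0956). Hnrnpab (−0.62, SE 0.17, adjusted p = 0.0252) and Srsf9 (−0.59, SE 0.17, adjusted p = 0.0331) were lower after injection in knockouts as in controls. Without systemic cKO 2, and likewise without topical cKO 5, the count fell to 3, which were Clk1, Clk4 and Snrnp25. On leaving out each of the 10 mice in turn, Srsf9 lost its call in 6 cases, Hnrnpab in 4 and Hnrnph3 in 3.

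Clk2 and Clk3, called in controls, gave −0.01 (SE 0.30) and 0.10 (SE 0.16) in knockouts, Srsf2 −0.0021 (SE 0.32) and Srsf7 0.42 (SE 0.16, adjusted p = 0.116). Hnrnpa3 gave −0.31 (SE 0.17) and Luc7l 0.28 (SE 0.23). The difference between genotypes in these route effects, which is the interaction given further on, was called for none of them in edgeR's quasi-likelihood test. DESeq2 called it for Srsf2, Srsf7 and Hnrnpa3. Over the 67 genes, the 2 route differences, which share no library, correlated at r = 0.617 (Spearman 0.646), with the same sign in 47, while over all 12424 genes r was 0.602 with the same sign in 8621. The correlation is across genes of 1 fit, which are not independent replicates.

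**Figure D3:**
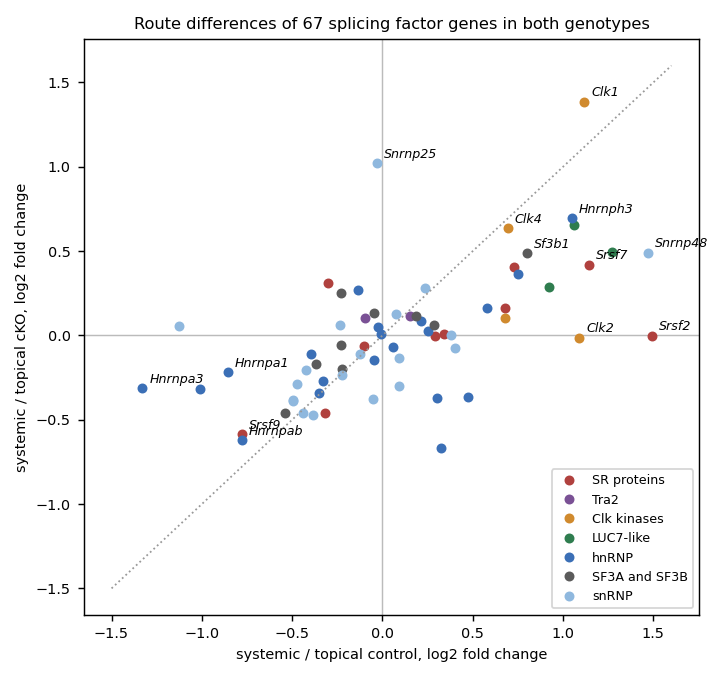
Log2 fold change of systemic against topical libraries in controls (horizontal axis) and in cKO (vertical axis) for the 67 tested splicing factor genes, coloured by family, with a dotted line of equal values. Clk1 and Clk4 lie near the line, Srsf2 and Clk2 lie near 0 in the cKO, and Snrnp25 lies near 0 in the controls.

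Injected knockouts were set against injected controls. In systemic cKO against systemic control, 3 of 67 splicing factor genes (4.48%) were called, against 1.89% of all genes tested: Hnrnpa3 was higher (1.36% of all genes were) and Srsf2 and Srsf7 were lower (0.531%). Hnrnpa3 was at 12.6, 15.1, 9.02, 11.9 and 11.4 CPM in systemic controls and at 16.3, 19.3, 22.3, 25.3 and 18.0 CPM in systemic cKO (0.76, SE 0.17, adjusted p = 0.025), without overlap. Srsf7 was at 106, 75.4, 88.1, 53.8 and 97.2 CPM in systemic cKO, each below the lowest systemic control at 120 CPM (−0.69, SE 0.16, adjusted p = 0.0284). Srsf2 was at 248, 46.4, 69.0, 98.3 and 162 CPM in systemic cKO (−1.34, SE 0.33, adjusted p = 0.0382), and its highest mouse, systemic cKO 2, lay above the lowest systemic control at 200 CPM. Hnrnpa1 also did not overlap between the groups, at 50.1 to 68.2 CPM in systemic cKO and 35.2 to 49.6 CPM in systemic controls, and gave 0.50 (SE 0.17, adjusted p = 0.139). Of all genes, 1.02% did not overlap in the higher and 0.918% in the lower direction.

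Each of the 3 called genes had moved the other way between systemic and topical controls. In systemic cKO their means were 125 ± 81.5 CPM for Srsf2, 84.2 ± 20.5 CPM for Srsf7 and 20.2 ± 3.58 CPM for Hnrnpa3, beside 112 ± 12.9, 61.5 ± 9.08 and 30.2 ± 5.09 CPM in topical controls. Both comparisons use the systemic controls, so the opposite signs are not independent. Mettl23, which overlaps Srsf2, was lower with it (−1.11, adjusted p = 0.0178), and the reads of both cannot be told apart where they overlap. The family medians were −0.28 for SR genes (8 of 10 below 0), −0.32 for Clk kinases (4 of 4), −0.48 for LUC7-like genes (3 of 3), −0.07 for hnRNP, 0.19 for Tra2 (0 of 2), 0.04 for SF3A and SF3B and 0.02 for snRNP genes, beside −0.0045 over all genes tested.

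On leaving out each of the 10 mice in turn, the call of Srsf2 was lost in 8 cases, that of Srsf7 in 6 and that of Hnrnpa3 in 5. Without systemic cKO 5, cKO 6, control 4 or control 5 none of the 67 was called, without systemic cKO 4, control 3 or control 6 there was 1, and without systemic cKO 2 there were 7: Srsf2, Srsf7, Luc7l and Snrpa1 lower, Hnrnpa3, Hnrnpa0 and Snrnp25 higher. The share of all genes called in these fits is not given here. With the satellite-like split as a covariate the values were −0.35 for Srsf2, −0.35 for Srsf7 and 0.44 for Hnrnpa3, and with the log2 level −0.67, −0.51 and 0.62, with no call in either. Without the 3 libraries highest in these transcripts all 3 were called, at −1.43 for Srsf2 (adjusted p = 0.0128), −0.81 for Srsf7 (adjusted p = 0.0249) and 0.93 for Hnrnpa3 (adjusted p = 0.0197). With mitochondrial percent as a covariate the count of called genes rose instead, as given in the closing section. Markers of other cell types were also measured in these groups. The 7 summed epidermal immune markers ran from 16.7 to 33.7 CPM in systemic cKO and from 7.16 to 29.6 CPM in systemic controls, with Cd74 the main contributor, Ptprc at most 0.147 CPM in any library and Cd3e, Trdc and Itgax at a median of 0 CPM over all libraries. The 5 summed erythroid markers ran from 3.45 to 7.25 CPM against 1.23 to 6.34 CPM, with Hbb-bt at a median of 0 CPM. The part of these cells in the result was not tested.

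**Figure D4:**
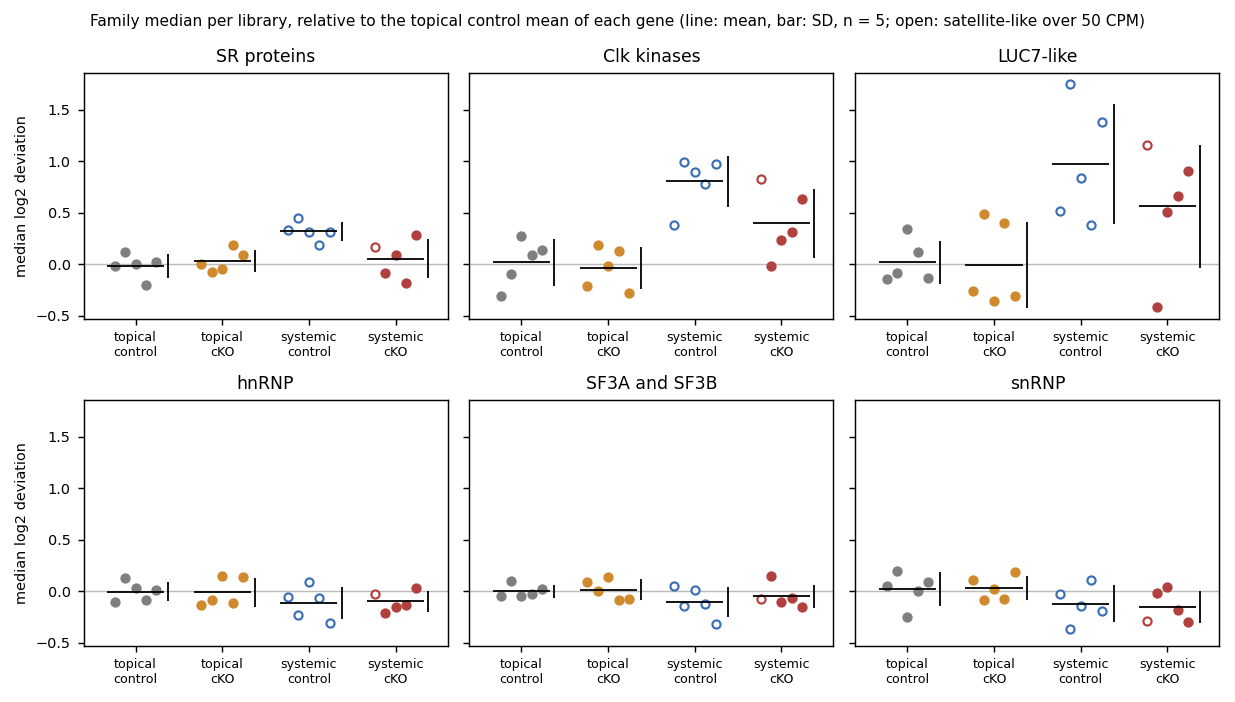
Median log2 deviation of each family's genes from their topical control mean (vertical axis) in each of the 20 mice by group, with the group mean as a line, the SD as a bar (n = 5) and open points for libraries whose satellite-like transcripts exceed 50 CPM. For the Clk kinases the systemic controls lie between 0.385 and 0.998 and the topical controls between −0.31 and 0.27, and systemic cKO 2 lies at the top of its group for Clk kinases and LUC7-like genes.

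By mouse, the family medians of systemic controls and systemic cKO overlapped in every family. For Clk kinases, systemic controls deviated from the topical control mean by 0.385 to 0.998 on the log2 scale and systemic cKO by −0.02 to 0.83. SR genes deviated by 0.19 to 0.45 in systemic controls and −0.18 to 0.28 in systemic cKO, and LUC7-like genes by 0.38 to 1.75 and −0.42 to 1.16. For the Clk kinases systemic control 1, at 0.385, lay below systemic cKO 7 at 0.637, and for SR genes cKO 7, at 0.281, lay above cKO 2 at 0.168. The pair of Tra2 genes ran from −0.50 to 0.54 in systemic controls and from −0.54 to 0.65 in systemic cKO. For hnRNP genes the ranges were −0.31 to 0.09 and −0.21 to 0.03, for SF3A and SF3B genes −0.32 to 0.05 and −0.16 to 0.15, and for snRNP genes −0.36 to 0.11 and −0.30 to 0.04. In these 3 families each range overlapped that of topical controls.

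After topical tamoxifen no splicing factor gene passed the threshold between genotypes. In topical cKO against topical control, 0 of 67 were called in edgeR's quasi-likelihood test, where 0.129% of all genes were called. At an unadjusted p under 0.05 there were 2 (2.99%, beside 5.66% of all genes), Clk1 and Snrnp25, and DESeq2 and limma voom called 0 as well. Clk1 averaged 108 ± 16.2 CPM in controls and 83.6 ± 13.8 CPM in cKO, with overlapping groups (−0.36, SE 0.17, adjusted p = 0.875). For Snrnp25 the means were 8.80 ± 1.63 and 6.59 ± 1.23 CPM (−0.43, SE 0.21, adjusted p = 0.881). Srsf2, Srsf7 and Hnrnpa3 gave 0.15 (SE 0.32), 0.03 (SE 0.16) and −0.26 (SE 0.17). All 67 values lay between −0.43 and 0.42, and no member's groups were without overlap, where 0.845% of all genes were so in the higher and 0.555% in the lower direction.

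Whether the difference between genotypes changed with the route was tested by the interaction. None of the 67 genes was called in edgeR's quasi-likelihood test (0.25% of all genes were, 0.185% upward and 0.0644% downward), and 16 of 67 (23.9%) had an unadjusted p under 0.05, beside 14% of all genes. DESeq2 called 4 members and 2.54% of all genes, and limma voom 2 members and 1.75% of all genes. Hnrnpa3 had the smallest adjusted p (1.02, SE 0.24, adjusted p = 0.0649), followed by Snrnp25 (1.05, adjusted p = 0.0956), Srsf2 (−1.5, SE 0.46, adjusted p = 0.136) and Srsf7 (−0.72, SE 0.23, adjusted p = 0.144). These were the 4 genes that DESeq2 called, and also the 4 called in edgeR's test without systemic cKO 2. For Clk1 and Clk4 the interaction was 0.27 (SE 0.24, adjusted p = 0.654) and −0.06 (SE 0.23, adjusted p = 0.942). Across the 67 genes, the genotype differences of both routes, which share no library, correlated at r = −0.554 (Spearman −0.479) with the same sign in 25, while over all genes r was −0.158. Genes of 1 fit are not independent replicates.

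Beyond the 67, 82 other splicing genes were listed by role, of which 81 were tested. Between controls 26 of 81 (32.1%) were called, 19 higher and 7 lower, beside 18.3% of all genes. Between knockouts there were 6 (7.41%, 4 higher and 2 lower), beside 9.22% of all genes, and by genotype after injection 5 (6.17%, 3 higher and 2 lower), beside 1.89%. By genotype after topical treatment and in the interaction there were 0, with 0 and 11 at an unadjusted p under 0.05. Of the genes listed as SR kinases and proteins of nuclear speckles, where SR proteins are stored, 11 of 18 were called higher and 0 lower between controls, beside 10.2% and 8.16% of all genes, with a median log2 fold change of 0.66. The SR kinase genes Srpk1 and Srpk2 were not among them, at 0.12 (adjusted p = 0.658) and 0.29 (adjusted p = 0.227). Prpf4b, a kinase gene of the same list, was among them (0.67, SE 0.19, adjusted p = 0.0185). Ccnl2, a cyclin of speckles, averaged 34.2 ± 3.6 CPM in topical and 119 ± 22.6 CPM in systemic controls (1.80, SE 0.25, adjusted p = 0.000115), Rsrp1 109 ± 21.2 and 417 ± 61.8 CPM (1.93, adjusted p = 0.000367). The speckle scaffold genes Srrm2 and Son rose by 1.47 (adjusted p = 0.00114) and 0.91 (adjusted p = 0.0015).

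Of the genes listed for the branch point and 3′ splice site, 4 of 9 were lower and 1 higher in systemic than in topical controls. Of all genes, 8.16% were called lower and 10.2% higher. U2af1, the subunit that reads the AG at the 3′ splice site, averaged 25.2 ± 4.45 and 9.36 ± 2.20 CPM (−1.43, SE 0.25, adjusted p = 0.000619). Dhx15, a helicase of spliceosome disassembly, and Sf1, the branch point binding protein, gave −0.68 (adjusted p = 0.00491) and −0.60 (adjusted p = 0.0118). Of the tri-snRNP and Prp19 complex genes 0 were higher and 2 of 16 lower, among them Cwc15 (−0.63, adjusted p = 0.00794), and none of the 8 LSm or 4 exon junction genes was called. In either direction, 18.3% of all genes were called. RNA-binding regulators gave 7 higher and 1 lower of 26, beside 10.2% and 8.16% of all genes. The 1 lower was Ptbp1, a repressor of exon inclusion, at 284 ± 55.5 and 91.0 ± 26.3 CPM (−1.64, SE 0.26, adjusted p = 0.000347), and Rbm39 was among the higher (1.16, adjusted p = 0.000207).

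After injection, 5 of these other genes were called by genotype. U2af1 (1.51, SE 0.25, adjusted p = 0.00239), Ptbp1 (1.16, SE 0.26, adjusted p = 0.0227) and Sf1 (0.63, SE 0.16, adjusted p = 0.0413) were higher in systemic cKO than in systemic control. Rsrp1 (−1.30, SE 0.31, adjusted p = 0.0296) and Ccnl2 (−0.98, SE 0.25, adjusted p = 0.0425) were lower. Between knockouts, Ccnl1 (1.2, SE 0.24, adjusted p = 0.00249), Rsrc2 (0.74), Rsrp1 (1.01) and Rbm5 (0.55) were higher after injection, and Prpf4 (−0.51) and Rbm47 (−0.60) lower, with adjusted p from 0.00249 to 0.0476.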

How the data were processed

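RNA sequencing counts of sorted keratinocytes from 20 mice were analysed. The authors deposited whole-number counts per gene without normalization, made with STAR and featureCounts on GRCm38 (mm10), per the submitters' processing notes, from SmartSeq II libraries, per the labels. Strand and multi-mapping settings are not given in the sources used here. Genes were matched by identifier to GENCODE vM21 (GRCm38), and promoters to RefSeq, using the first listed entry per symbol.

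All 20 libraries were fitted together in edgeR 4.0.16 (R 4.3.3): TMM scaling, filterByExpr at a minimum count of 10 and a minimum total count of 15, 1 coefficient per group, robust quasi-likelihood and two-sided F tests with 16 residual degrees of freedom. Benjamini-Hochberg adjustment ran over all 12424 genes that passed. Single-gene levels are TMM-scaled CPM, and sums use library totals alone. SE is that of the log2 fold change. Each figure point of a family is a median of log2 values with 0.5 CPM added. The procedure was tested on simulated data.

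The members, gene lists, tests and satellite-like genes were chosen with earlier results of these data known, so lists carry no p-value. Named were, per comparison, up to 8 called members in each direction with the smallest adjusted p, and a set of family representatives. Up to 5 other splicing genes in each direction were named as well. Hnrnpdl, Srsf4, Sf3b5, Snrpa1, Srsf6, Srsf10, Snrpb, Snrpe, Prpf4b and overlapping genes were named after their values were seen. Alternatives were DESeq2 1.42.0 (size factors, Wald test), limma 3.58.1 voom with quality weights, all genes with a count, a mean of at least 5 CPM, only the libraries compared, a replicate block, sex, mitochondrial percent and satellite-like level as covariates, and leaving out each library. Leaving out 3 libraries together was chosen after seeing the data.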

Additional observations from a re-analysis of the deposited data

Results flagged for a closer look

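In 5 of 164 groups of 5 libraries tested (41 named genes in 4 groups), 1 mouse stood apart from the other 4 by more than Dixon's 95% limit of 0.71 of the group's range; chance gives about 1 in 20. Systemic cKO 2 was the highest of its group for Hnrnph3, at 11 CPM with the next mouse at 7.75 CPM, and for Snrpa1, at 31.7 CPM with the next at 23.2 CPM. Topical control 6 was the lowest of its group for Hnrnpk, at 622 CPM with the next at 882 CPM, and the highest for Tra2a, at 33.6 CPM with the next at 26.3 CPM. Topical cKO 2 was the highest of its group for Snrnp35, at 1.61 CPM with the next at 1.13 CPM. Systemic cKO 2 was also the systemic cKO library with satellite-like transcripts over 50 CPM, and without it the call of Hnrnph3 between knockouts was lost.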

How the results depend on the processing

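Genotype after topical treatment gave 0 called splicing factor genes under every alternative run. After injection the 3 called became 0 with only the compared libraries, with the satellite-like split or with its log2 level, 13 with mitochondrial percent as a covariate, and 0 to 7 on leaving out 1 library. The interaction, at 0, became 4 with DESeq2's Wald test, 2 with limma voom, 3 with mitochondrial percent, 4 without the 3 libraries highest in satellite-like transcripts and 0 to 4 on leaving out 1. Between controls, 26 became 0 with the satellite-like split, 2 with its log2 level, 17 without those 3 libraries and 17 to 26 on leaving out 1. Between knockouts, 6 became 3 with the satellite-like split and 3 to 6 on leaving out 1. Signs of called values turned in 3 cases, all between controls with the satellite-like split: Hnrnpdl −0.068, Luc7l −0.15 and Snrpa1 −0.18. In each case the cause was not tested. Shares of all genes called under each alternative are not given beside these counts. The changed counts are thus not read as particular to splicing factor genes. Of 170 values without a call, 79 changed sign under at least 1 alternative. The mouse numbers were not taken as pairs in the main fit: deviations of same-numbered mice correlated at −0.314 to 0.338, and 4 of 14 pairs correlated best with their own number. So few pairs cannot tell whether the numbers mark shared litters or handling. With the replicate block, 0, 2, 0, 25 and 6 genes were called in the 5 comparisons in the order topical genotype, systemic genotype, interaction, controls and knockouts. Depth limits the rarest genes, such as Srsf12 at no more than 0.511 CPM.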
